A study of Mus musculus with 2 samples.

Results

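The cells described here are liver macrophages chosen by the sum of their Gpnmb, Mmp12 and Trem2 transcripts and by that of their Kupffer cell genes, and they numbered 355 of 16716 cells kept from both libraries. Barcodes were kept with at least 300 detected genes and at most 25% mitochondrial counts. A kept barcode was a member when Gpnmb, Mmp12 and Trem2 summed to at least 5 per 10000 of its counts, with at least 2 counts of Gpnmb and Mmp12, and when the Kupffer genes Clec4f, Vsig4, Cd5l and C6 summed to at least 10 per 10000. Barcodes with 15 or more per 10000 of the endothelial genes Ptprb, Kdr, Stab2 and Gpr182, or 10 or more of the stellate cell genes Dcn, Colec11 and Ecm1, were left out. The rule therefore used the measured levels of these 14 genes, and their levels below are a description of the choice, not a finding.

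The study profiled liver cells of mice after partial inferior vena cava ligation (pIVCL), a model of congestion in which the outflow of blood from the liver is narrowed. The library labelled knockout came from a male mouse of genotype Cdh5-CreERT2; Ctgf fl/fl, in which Cre recombinase follows the endothelial Cdh5 promoter and acts on floxed alleles of Ctgf (Ccn2), the gene of connective tissue growth factor. The library labelled control came from a Ctgf fl/fl littermate without the Cre transgene, so both mice carried the floxed alleles and both were ligated. Each label had 1 mouse and 1 library, hepatocytes, dead cells and erythrocytes had been depleted before capture, and no label states the age, the time after ligation or the Cre induction. The submitted sample titles assign the genotypes the other way round from the genotype fields and library names, and the genotype fields were followed. Ccn2 went with those fields, at 923 CPM (counts of a gene scaled to a class total of 1000000) over 2368 cells past the endothelial limit and below the Kupffer threshold in the library labelled control and 49.0 CPM over 3871 such cells in that labelled knockout. With 1 library for each label, no test between the mice was possible, p-values are not given, and every interval below is a 95% interval for counting error alone.

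Kupffer cells are the resident macrophages of the liver sinusoids. They take up lipid, haem and dead cells from the blood, and the phosphatidylserine receptor Timd4 marks those of long residence, whereas macrophages newly derived from monocytes lack it at first. In injured and fatty liver, macrophages that carry the lipid receptor TREM2, the transmembrane glycoprotein GPNMB, the tetraspanin CD9 and osteopontin (Spp1) are described as scar- or lipid-associated macrophages, and they are found in fibrous scars. Matrix metalloproteinase 12 (Mmp12), or macrophage elastase, degrades elastin and other matrix proteins.

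The library labelled control held 344 members among 7917 kept cells, a share of 4.35% (3.91 to 4.82), and the library labelled knockout 11 among 8799, a share of 0.125% (0.0624 to 0.224). Cells that met the Kupffer threshold and both exclusions were about equally common, at 1417 and 1424, so that the members' part of them was 24.3% (22.1 to 26.6) where the label is control and 0.772% (0.386 to 1.38) where it is knockout. The share of Kupffer-gated cells was thus 31.4-fold (17.3 to 63.5) lower in the library labelled knockout. Member cells were deeper in the library labelled knockout, with a median of 21043 counts per cell against 14580.5, and so were the other Kupffer-gated cells, at 16741 against 10286. With every cell thinned to 3000 counts, members were 18.4% of Kupffer-gated cells (264 cells) and 0.643% (9 cells), and at 8000 counts, where 74 and 0 members were too shallow to use, 27.9% and 0.823%. B cells, which should not make these transcripts, gave the background of free RNA. At least 2 counts of Gpnmb and Mmp12 were found in 1 of 217 B cells (0.461%) of the library labelled control and in 2 of 243 (0.823%) of that labelled knockout, at median depths of 4647 and 4128 counts. These B cells were not held to the threshold of 5 per 10000, so their shares are not those of a gate. Mmp12 alone was found in 4 of 217 (1.84%) and in 0 of 243 B cells (upper limit 1.51%). The members of the library labelled knockout held it in 9 of 11 cells, at up to 173 counts, but the rule chose them by this gene. Their share is therefore not comparable with that of B cells, and the part of free RNA in these 11 cells was not tested.

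**Figure D1:**
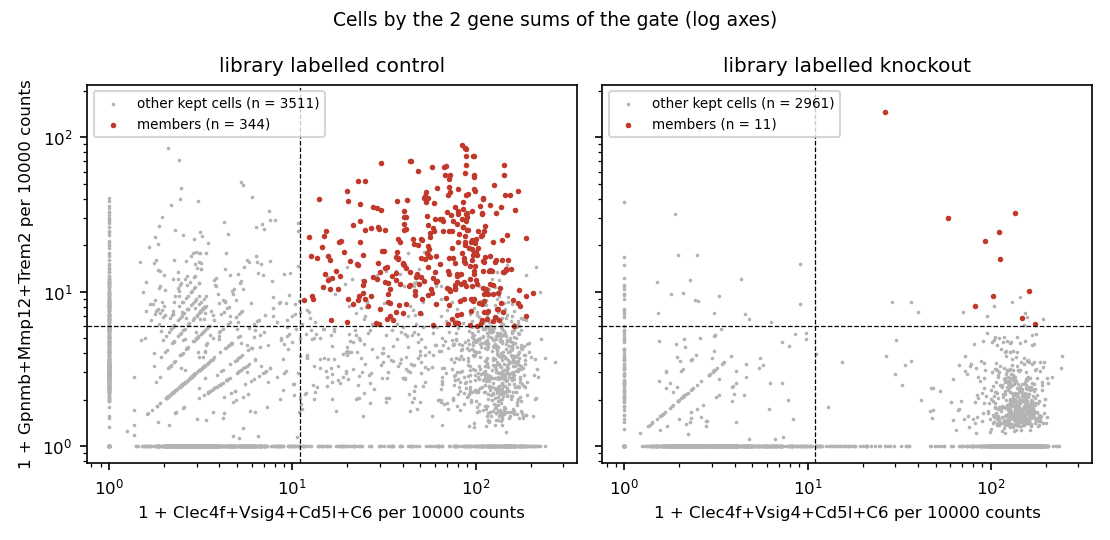
Kept cells that passed both exclusions, by the summed Kupffer genes Clec4f, Vsig4, Cd5l and C6 (x axis) and the summed Gpnmb, Mmp12 and Trem2 (y axis), each per 10000 counts with 1 added, on log axes. Each point is a cell, red points are members, and dashed lines mark the thresholds of 10 and 5. The 344 members of the library labelled control fill the upper right corner as a continuous extension of the Kupffer-gated cells, and the same corner holds 11 members in the library labelled knockout.

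Cells lay close to the thresholds on both sides. The Gpnmb, Mmp12 and Trem2 step alone passed 684 cells of the library labelled control and 36 in that labelled knockout, of which 229 and 23 lay below the Kupffer threshold. The endothelial limit alone removed 88 and 2 further cells, the stellate limit alone 17 and 0, and both together 6 and 0. Just inside the threshold, 35 members of the library labelled control and 2 of that labelled knockout lay at 5 to 7 per 10000. Just outside it, 57 and 3 Kupffer-gated cells with at least 2 counts of Gpnmb and Mmp12 lay at 3 to 5 per 10000, and 117 and 12 cells reached 5 per 10000 without 2 counts of the other genes. On the Kupffer axis, 29 and 0 members lay at 10 to 20 per 10000, and 24 and 1 cells that met all other terms lay at 5 to 10.

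The genes that chose the cells were not carried equally by all of them. Among the 344 members of the library labelled control, Trem2 was found in 327 cells (95.1%), Mmp12 in 270 (78.5%) and Gpnmb in 236 (68.6%). Gpnmb and Mmp12 occurred together in 162 members (47.1%), Gpnmb without Mmp12 in 74 (21.5%) and Mmp12 without Gpnmb in 108 (31.4%). Per 10000 counts, Gpnmb had a median of 2.22 and a range of 0 to 47.2, Mmp12 a median of 5.69 and a range of 0 to 83.4, and Trem2 a median of 4.59 and a range of 0 to 18.6. The share of B cells with a count was 2.30% for Gpnmb, 1.84% for Mmp12 and 6.45% for Trem2 at a median depth of 4647 counts. Across these 344 cells of a single library, which share ambient RNA and differ in depth, the Spearman correlation was -0.30 between Gpnmb and Mmp12, 0.39 between Gpnmb and Trem2 and -0.13 between Mmp12 and Trem2. Because a cell low in one of these genes needs more of the others to pass the summed threshold, the rule itself bears on all of these values. The summed genes had a correlation of 0.14 with depth and of 0.00 with the summed Kupffer genes.

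Of the 5 markers named for scar-type macrophages, Gpnmb, Trem2 and Mmp12 belong to the rule, so only Cd9 and osteopontin (Spp1) lie outside it. Cd9 stood at 116 CPM in members and 61.3 in the other Kupffer-gated cells of the library labelled control, and 66.6 (a count of 17) and 13.8 in that labelled knockout. It was not particular to members. Gpnmb or Mmp12 cells below the Kupffer threshold had 160 CPM of Cd9 in the library labelled control and 569 CPM in that labelled knockout. Monocytes had 35.5 and 72.4 CPM. Spp1 was nearly absent from members of the library labelled control, with 12 counts in 10 of 344 cells (2.91%, against 1 of 217 B cells, 0.461%), or 2.24 CPM, and the library labelled knockout gave 1 count in 11 cells. Spp1 was found instead in cells outside the gate: 495 CPM in the 196 Gpnmb or Mmp12 cells below the Kupffer threshold, 57.1 CPM in the 293 other Kupffer-gated cells without Timd4 and 0.694 CPM in the 780 with Timd4. Since a defining gene of the scar-type label is near 0, and the rule itself required Kupffer genes, the cells are called here by their leading genes, as Gpnmb/Mmp12 Kupffer-gated macrophages, or members.

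**Figure D2:**
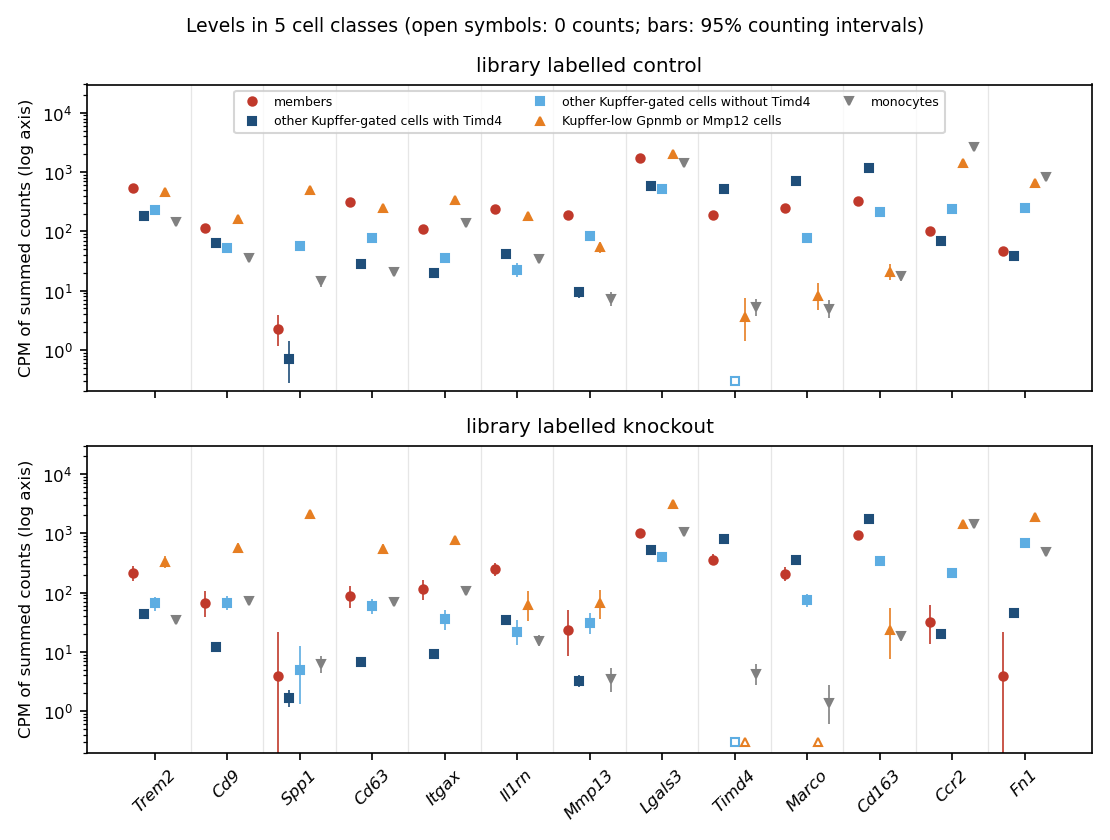
Levels of 13 genes, in CPM of summed counts on a log axis, in members, in the other Kupffer-gated cells with and without Timd4, in Gpnmb or Mmp12 cells below the Kupffer threshold, and in monocytes of each library. Points are levels, bars their 95% counting intervals, and open symbols classes with 0 counts. Members of the library labelled control lie highest of the 5 classes for Cd63, Il1rn and Mmp13, at 308, 236 and 192 CPM, and low for Spp1, at 2.24 CPM, while Itgax is higher in the cells below the Kupffer threshold (338 CPM).

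Members were compared with the other Kupffer-gated cells of their own library, 1073 in the library labelled control and 1413 in that labelled knockout, to see what goes with Gpnmb, Mmp12 and Trem2 in these macrophages. Counts were summed over the cells of each class, and a gene was counted only when it was at least 1.5-fold apart, the same way, in both libraries. This picks genes by size and not by a test, and the cells were sorted by 3 of the genes beforehand. Of 8460 genes measured well enough in both libraries, 165 (1.95%) were higher in members and 189 (2.23%) were lower, the former including the 3 genes of the rule. The other genes past this size went opposite ways in the libraries in 86 cases. All 354 ratios counted had a counting interval that left out 0 in the library labelled control. In the library labelled knockout, where 11 cells supplied the counts, this held for 114 of the 165 and 103 of the 189. Where 2 pairs of values follow a gene below, members stand before the other Kupffer-gated cells in each pair, and the library labelled control comes first. The control-labelled cells alone gave 332 of 8928 genes (3.72%) higher and 579 (6.49%) lower.

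The genes with the largest ratios outside the rule encode membrane, secreted and stress-response proteins. Cd63, a tetraspanin of late endosomes and lysosomes, stood at 308 CPM in members and 38.7 in the other Kupffer-gated cells of the library labelled control, and 86.1 (a count of 22) and 8.52 in that labelled knockout. That was a log2 ratio of 2.99 (2.84 to 3.14) and 3.34 (2.63 to 3.97), the highest smaller ratio among genes outside the rule with at least 50 CPM and 100 counts. Il1rn, which encodes the interleukin-1 receptor antagonist, had 236 CPM in members and 37.2 in the other Kupffer-gated cells of the library labelled control, and 251 (a count of 64) and 33.7 in that labelled knockout. The log2 ratios were 2.67 and 2.89. Itgax, the CD11c chain of complement receptor 4, had 108 CPM in members and 23.1 in the other Kupffer-gated cells of the library labelled control, and 114 (a count of 29) and 10.001 in that labelled knockout. Slamf7, a self-binding receptor of leukocytes, stood at 147 against 30.6 CPM and at 50.9 against 8.73 CPM, and the related Slamf8 at 81.5 against 20.1 CPM and 78.3 against 29.5 CPM. Gdf15, a cytokine of the TGF-beta family made under cell stress, was 4.14-fold and 3.57-fold higher. For the chemokine Ccl9 the folds were 4.75 and 3.28, for the small GTPase Rhoc 3.22 and 5.18, and for Gla, the lysosomal alpha-galactosidase, 3.13 and 4.86. Plau (urokinase), the G protein-coupled receptor Gpr35 and the stress-induced transcription factor Atf3 completed the 12 highest, between 2.64-fold and 2.69-fold higher in the library labelled control. Some were higher still in other cells of that library. Ccl9 had 384 CPM in members, 827 in Gpnmb or Mmp12 cells below the Kupffer threshold and 626 in monocytes. Gpr35 had 95.5, 124 and 154 CPM in the same order, and Atf3 62.1, 94.2 and 71.5 CPM. Cd63, Il1rn, Gdf15 and Gla were higher in members than in both of these classes.

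Several of these levels in the library labelled knockout came from 1 or 2 of its 11 cells. A single cell held 23 of the 29 Itgax counts, 35 of 44 Plau counts, 18 of 28 Gdf15 counts, 28 of 55 Rhoc counts and 10 of 13 Slamf7 counts. Gla was spread more evenly, with at most 8 of 27 counts in a cell and counts in 7 of 11 cells, and Atf3 was found in 9 of 11. In the library labelled control the genes were carried broadly: Cd63 was found in 250 of 344 members (72.7%) against 227 of 1073 other Kupffer-gated cells (21.2%) and 6 of 217 B cells (2.76%), and Itgax in 51.2% against 13.6% and 5.07%.

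**Figure D3:**
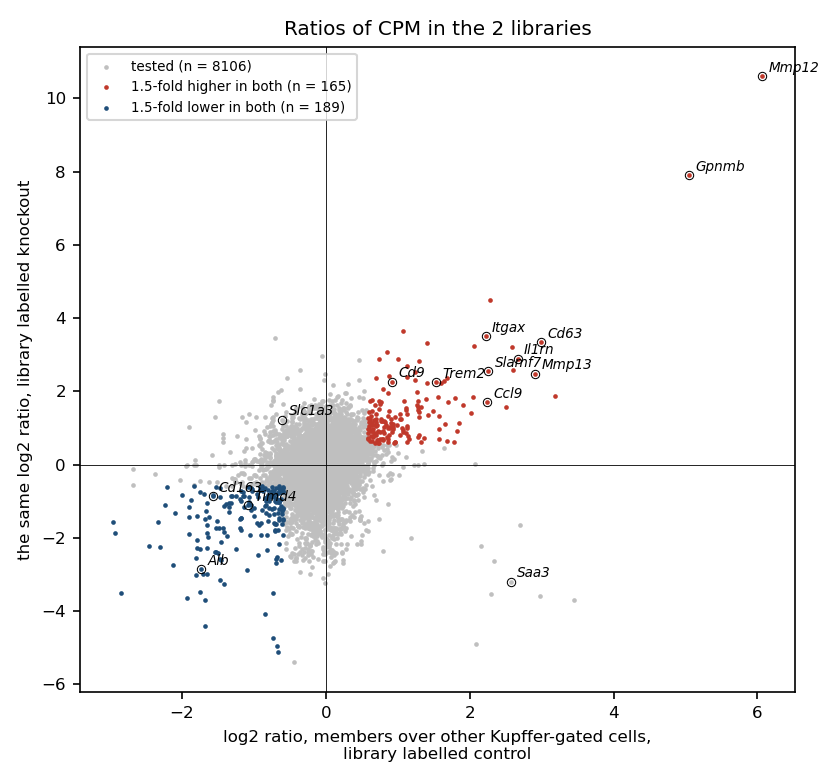
Log2 ratio of CPM in members over the other Kupffer-gated cells for 8460 genes, in the library labelled control (x axis) and that labelled knockout (y axis). Each point is a gene, red and blue points are at least 1.5-fold higher (165) or lower (189) in both libraries, and circled points are named. Cd63, Il1rn, Itgax and Slamf7 lie high on both axes beside the rule genes, Timd4, Cd163 and Alb lie low on both, and Saa3 and Slc1a3 lie on opposite sides.

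Upstream sequences are shown for some genes that were higher in members, picked because a promoter window of each holds a short element that others lack. The windows are RefSeq's, on GRCm38.p6, and run from 250 bases before to 50 after the annotated start. The counts were made on GRCm39 and hold no coordinates. TGANTCA, the element bound by AP-1 factors, which include Fos, Jun and Atf3, was searched on both strands, and the site is read the same on each. It was present in 6 of the 11 highest genes that the table holds (Ccl9, Gpr35, Il1rn, Itgax, Slamf7 and Slamf8). The windows of Atf3, Cd63, Gdf15, Gla and Rhoc lacked it. A window of each of the 3 rule genes held it, but the first annotated window of Mmp12 did not. Over the whole set it was present in 7.81% of 32851 windows and 8.97% of 27025 genes. TCATGTG, or CACATGA on the other strand, an element of the MiT/TFE lysosomal regulators, was present in 1 of the 11 (Gla) and in 4.31% of genes. CACGTG, a palindrome that the same family and others bind, was present in 3 of the 11 (Gdf15, Gla and Slamf8) and in 8.09% of genes. The 12 genes were chosen by their ratios, a match is only a string of letters and not a bound site, and occupancy was not measured. The 120 bases before the start are printed 5′ to 3′ on the gene's strand, with matches to TGANTCA or CACATGA in capitals. In Gpnmb the match lies 9 bases past the start, outside the bases printed.
Gpnmb, chr6:49036398-49036517, plus strand: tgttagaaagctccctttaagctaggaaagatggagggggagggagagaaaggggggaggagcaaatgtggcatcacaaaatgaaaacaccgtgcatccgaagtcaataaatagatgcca
Trem2, chr17:48346281-48346400, plus strand: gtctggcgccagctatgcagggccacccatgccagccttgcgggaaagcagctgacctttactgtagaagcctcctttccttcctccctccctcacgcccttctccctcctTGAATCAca
Mmp12, chr9:7347254-7347373, plus strand: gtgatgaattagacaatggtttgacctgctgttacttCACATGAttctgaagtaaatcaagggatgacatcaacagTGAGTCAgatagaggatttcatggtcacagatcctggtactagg
Itgax, chr7:128129430-128129549, plus strand: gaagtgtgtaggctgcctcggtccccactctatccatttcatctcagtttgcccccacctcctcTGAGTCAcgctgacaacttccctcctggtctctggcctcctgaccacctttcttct
Slamf7, chr1:171649000-171649119, minus strand: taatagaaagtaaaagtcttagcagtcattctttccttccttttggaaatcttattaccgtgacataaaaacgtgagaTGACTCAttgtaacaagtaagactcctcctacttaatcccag
Ccl9, chr11:83578637-83578756, minus strand: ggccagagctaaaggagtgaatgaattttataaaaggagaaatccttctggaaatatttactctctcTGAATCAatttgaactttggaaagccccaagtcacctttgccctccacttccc
Mmp13, chr9:7272394-7272513, plus strand: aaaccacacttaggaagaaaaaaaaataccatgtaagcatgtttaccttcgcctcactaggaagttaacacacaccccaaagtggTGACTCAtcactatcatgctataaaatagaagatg
The match begins 9 bases before the start of Trem2, 44 before the second annotated start of Mmp12, 56 before Itgax, 42 before Slamf7, 53 before Ccl9 and 35 before Mmp13. The Mmp12 window also holds CACATGA, 83 bases before the start. Mmp13 was not among the 12 highest and is shown as another matrix metalloproteinase that was several fold higher in members. It was not the only one. Mmp14 was 2.13-fold and 3.35-fold higher in the libraries labelled control and knockout, and Mmp19 3.11-fold and 1.36-fold. Their upstream sequences are not shown.

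The wider list of scar- and lipid-associated macrophage genes went with the rule's genes. Outside the rule, 9 of 13 genes of the list were higher in both libraries and 0 lower, with median log2 ratios of 1.57 and 1.14 beside -0.05 and 0.01 over all genes. Besides Cd63, Cd9, Itgax and Atf3, these were Clec7a, Lgals3, Lpl, Capg and Matk. Clec7a (dectin-1, a receptor of beta-glucans) had 1782 against 596 CPM and 1479.8 against 586 CPM. Lgals3 (galectin-3) had 1709 against 576 CPM and 1006 against 513 CPM, and Lpl (lipoprotein lipase) 3673 against 1925 CPM and 2592 against 1331 CPM. Of 14 genes of the signalling chain below TREM2, 0 were 1.5-fold apart either way in both libraries. Over all genes 1.95% were higher and 2.23% lower, so this count does not set the chain apart. Its median log2 ratios were -0.09 and -0.15, and the adaptor Tyrobp (DAP12) had 0.03 and -0.26.

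Lysosomal and lipid genes differed by a smaller size. Among 23 lysosomal proteases and membrane proteins, 2 were higher and 1 lower, with medians of 0.26 and 0.14. Those higher were Gla and the aspartic protease Ctsd, at 1127 against 658 CPM and 869 against 539 CPM, and the cysteine protease Ctsf was lower. Of 15 subunits of the proton pump of the lysosome, the V-ATPase, Atp6v0a1 alone was higher in both libraries, at 179.99 against 87.2 CPM and 157 against 65.7 CPM. The d2 subunit, Atp6v0d2, which is prominent in osteoclasts and some macrophages, stood at 148 against 4.44 CPM in the library labelled control, where 33.7% of members held a count, and at a count of 1 in the 11 members of that labelled knockout. Of 13 genes of the MiT/TFE family and its partners, Fnip2 alone was higher. Of 22 genes of lipid uptake, storage and export, the fatty acid receptor Cd36 (1093 against 652 CPM and 739.9 against 101 CPM) and the lipid droplet protein Plin3 were higher and 0 lower, and the median was 0.17 and 0.22.

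Proteases that act on matrix were among the higher genes. Outside the rule, 4 of 13 matrix proteases and inhibitors were higher in both libraries and 0 lower. The collagenase Mmp13 had 192 CPM in members and 25.6 in the other Kupffer-gated cells of the library labelled control, and 23.5 (a count of 6) and 4.20 in that labelled knockout. An Mmp13 count was held by 46.8% of members, 11.6% of the other Kupffer-gated cells and 1.38% of B cells in the library labelled control. Mmp14, a membrane-bound collagenase, had 57.0 against 26.7 CPM and 94.0 against 28.0 CPM. Plau stood at 95.5 against 36.2 CPM and 172 against 17.3 CPM, and its receptor Plaur at 53.3 against 21.7 CPM and 43.1 against 15.8 CPM. Of 14 growth factors and matrix products ascribed to profibrotic macrophages, the platelet-derived growth factor genes Pdgfa and Pdgfb were higher, with log2 ratios of 0.69 and 0.60 in the library labelled control and 1.05 and 1.17 in that labelled knockout, and fibronectin (Fn1) was lower, on 1 count in the latter.

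Chemokine genes were the other list with many higher genes, at 7 of 16, with 1 lower and medians of 0.60 and 0.97. They were Ccl4, Ccl7 and Ccl9, whose products attract monocytes and other leukocytes, Cxcl2, which attracts neutrophils, Cxcl9 and Cxcl16, which attract T cells, and the receptor gene Cxcr4. Cxcl9 had 185 against 78.8 CPM and 239 against 41.6 CPM, the latter with a log2 ratio of -1.96 at stricter endothelial and stellate limits. Ccl24, an eosinophil attractant, was the lower one, at 44.3 against 112 CPM and 86.1 against 213 CPM. Inflammatory cytokine genes were less one-sided: Il1rn and Tnf were higher and 0 of 13 lower, and the median was 0.01 and -0.03. Among 20 macrophage transcription factors, Egr2 and Bhlhe40 were higher and Cebpd was lower. The iron storage gene Fth1, at 5042 against 2854 CPM and 7889 against 3495 CPM, and the organic anion transporter Slco2b1 were higher among 16 haem and iron genes, and Cd163 was lower. C5ar1, the receptor of complement fragment C5a, had log2 ratios of 0.91 and 1.15. Pgk1 and Pkm were the 2 higher genes of 19 in hypoxia and glycolysis, and Pgk1 had -0.062 in the library labelled knockout at the same stricter limits.

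Resident Kupffer cell genes were lower but present. Outside the rule, 4 of 20 Kupffer identity genes were lower in both libraries and 0 higher, with medians of -0.38 and -0.35. The haemoglobin scavenger receptor Cd163 stood at 323 against 962 CPM and 939.6 against 1714 CPM. The folate receptor Folr2 had 296 against 606 CPM and 799 against 1237 CPM, and the scavenger receptor Marco 248 against 562 CPM and 207 against 342 CPM. Timd4 stood at 191 against 402 CPM and 360.2 against 775 CPM. A count of Timd4 was found in 181 of 344 members (52.6%) and 780 of 1073 other Kupffer-gated cells (72.7%) of the library labelled control, beside 3.23% of B cells, and in 9 of the 11 members of that labelled knockout. Monocyte and recruited macrophage genes were lower too, at 3 of 13 (Chil3, Fn1 and Plac8), with 0 higher and medians of -0.37 and -0.48. Members of the library labelled knockout held 0 counts of Chil3, 1 of Fn1 and 13 of Plac8, and the Fn1 ratio of the library labelled control was 0.30 against Timd4-positive cells alone.

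These directions depended on the comparison cells. When the other Kupffer-gated cells were divided by whether a Timd4 count was found, members of the library labelled control lay between the groups. Marco was 694 CPM in the 780 Timd4-positive cells, 248 in members and 77.1 in the 293 Timd4-negative cells. Cd163 had 1167, 323 and 212 CPM, and Folr2 715, 296 and 205 CPM in the same order. The monocyte chemokine receptor Ccr2 ran the other way, at 67.7, 103 and 234 CPM. Timd4-negative cells were also the shallower ones, with a median of 7541 counts against 11718.5 for the Timd4-positive. Against Timd4-negative cells alone, the log2 ratio of the library labelled control was 1.69 for Marco, 0.61 for Cd163 and 0.53 for Folr2, above 0 in place of below it. The library labelled knockout had 88 Timd4-negative cells, and its ratio against these alone was below 0 for Ccl9 (-0.65), Mmp13 (-0.37), Slamf7 (-0.36), Plaur (-1.51), Bhlhe40 (-1.03) and Cd9 (-0.028), and was above 0 for Ccl24 (0.90) and Ctsf (0.47). The part of depth and of the mixture of these groups in the differences above was not tested.

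No MHC class II, interferon or cell cycle gene of the lists passed 1.5-fold in the same direction in both libraries. Over all genes 1.95% were higher and 2.23% lower, so a count of 0 does not set lists of this size apart. Of 12 genes of antigen presentation and co-stimulation 0 were counted, and their median was 0.55 in the library labelled control and -0.08 in that labelled knockout. In the library labelled control alone, 6 of 13 such genes were higher and 1 lower, beside 3.72% and 6.49% of all genes. H2-Aa, a chain of the class II molecule, had 3458 against 1868 CPM in the library labelled control and 1456 against 1953 CPM in that labelled knockout. The former difference depended on the comparison cells. In the library labelled control H2-Aa had 1460 CPM in Timd4-positive and 3363 in Timd4-negative other Kupffer-gated cells. It had 6296 CPM in the Gpnmb or Mmp12 cells below the Kupffer threshold and 4345 in monocytes. Cd74 had a log2 ratio of 0.65 there, and of -0.084 against Timd4-negative cells alone. Of 21 type I interferon-stimulated genes 0 were counted, with medians of -0.27 and -0.37. Of 12 cell cycle genes 0 were counted, with medians of -0.07 and -0.92, the latter from few counts.

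Transcripts of another cell type were among those with the lowest ratios. Among the lowest genes were Fgb, Serpina1c, Ahsg, Alb, Serpina1b, Ttr and Gc, which are made by hepatocytes. Albumin (Alb) stood at 320.4 against 1062 CPM in the library labelled control and 50.9 against 371 CPM in that labelled knockout. All 6 hepatocyte markers were detected in members of the library labelled control, and they summed to 483 CPM in members against 1509.8 in the other Kupffer-gated cells. The sums in the library labelled knockout were 102 and 632 CPM, with Cyp2e1 at 0 counts in members. Once cells past a limit for markers of another lineage were left out, the log2 ratio in the library labelled control became 0.015 for Alb, 0.15 for Gc and 0.21 for Ttr. These exclusions removed 18 members and 107 of the other Kupffer-gated cells. Alb and Ttr are themselves among the hepatocyte markers of that limit, so their change follows in part from how cells were left out. The ratios of Fgb, Serpina1c, Ahsg and Serpina1b did not change sign, nor did those of these genes in the library labelled knockout.

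**Figure D4:**
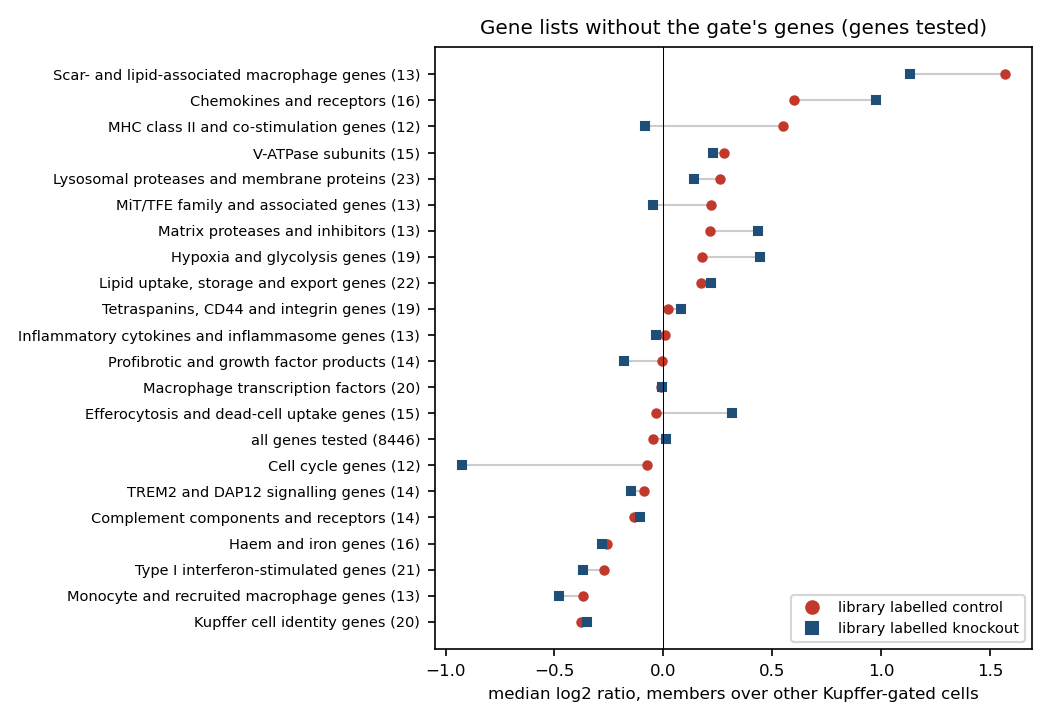
Median log2 ratio of members over the other Kupffer-gated cells for each gene list, genes of the rule left out, in the library labelled control and that labelled knockout, with the median over all genes for comparison. Scar- and lipid-associated genes (1.57 and 1.14) and chemokines (0.60 and 0.97) lie to the right in both libraries, Kupffer identity genes (-0.38 and -0.35) to the left, and MHC class II genes (0.55 and -0.08) apart.

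Cells that met the Gpnmb, Mmp12 and Trem2 step but not the Kupffer threshold, 196 in the library labelled control and 20 in that labelled knockout, differed widely from members. The level of Kupffer genes chose the groups, so only genes outside the rule are described, in the library labelled control. Of 9040 genes, 1030 (11.4%) were at least 1.5-fold higher in members and 1056 (11.7%) lower. Monocyte and recruited macrophage genes were lower in members in 15 of 16 cases, with a median log2 ratio of -2.94, and Kupffer identity genes outside the rule were higher in 15 of 20 cases, with a median of 2.54. Ccr2 stood at 103 CPM in members, 1426 in the cells below the Kupffer threshold and 2639 in monocytes, and Fn1 at 46.5, 647 and 827 CPM. Timd4 was 191 against 3.58 CPM. Spp1, the marker of alternative activation Mgl2, the bridging protein gene Mfge8 and Chil3 had the lowest ratios in members. Chil3, a gene of the monocyte list, stood at 7.48 CPM in members, 158 in the cells below the Kupffer threshold and 849 in monocytes. Members were higher in 12 of 16 haem and iron genes (median 0.90) and in 11 of 24 lysosomal genes (0.53), with 0 and 1 lower. The scar-associated list itself was split, with 2 of 17 genes higher in members and 8 lower. The cells below the threshold were shallower, with a median of 8461 counts per cell.

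Within the members of the library labelled control, cells with more of the rule's genes were compared with those with less. The median of the summed Gpnmb, Mmp12 and Trem2, 15.2 per 10000, divided them into 172 and 172 cells, which are ends of a range and not types. Of 8878 genes, 452 (5.09%) were at least 1.5-fold higher above the median and 634 (7.14%) lower. The scar-associated list went with the sum, with 11 of its 13 genes outside the rule higher, 0 lower and a median log2 ratio of 0.82 beside -0.04 over all genes. Atp6v0d2 had 241 CPM above the median and 41.4 below it. Il1rn had 375 and 76.3 CPM, Ccl9 564 and 178, and Lgals3 2414 and 899. The aminopeptidase Anpep, the metalloproteinase Adam8 and Mmp13 were also among the highest. In 12 of 16 monocyte genes the level was lower above the median, with 1 higher and a median of -1.42, and Ccr2 had 38.1 CPM above the median and 177 below it. Cell cycle genes were higher in 11 of 22 cases and lower in 0, with a median of 0.57. Of 20 Kupffer identity genes, 0 were higher and 2 lower, with a median of -0.14. Cells above the median were the deeper, at a median of 15792 against 13242 counts.

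Members also differed by which of the rule's genes they carried most. This division was chosen after the values were seen. In the library labelled control 122 members held more Gpnmb than Mmp12 counts and 211 held more Mmp12 than Gpnmb, with like depths (medians of 14833.5 and 14415 counts per cell). Of 8896 genes, 564 (6.34%) were at least 1.5-fold higher in the Gpnmb-leaning members and 595 (6.69%) lower. Monocyte and recruited macrophage genes were higher in the Gpnmb-leaning members in 9 of 16 cases and lower in 0, with a median log2 ratio of 1.08. Kupffer identity genes were lower in 9 of 20 and higher in 1, with a median of -0.39, beside 0.02 over all genes. The scar-associated list was split, with 2 of 14 higher and 2 lower.

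Genes of this contrast differed in how many cells carried them. Among those of high ratio, Saa3 was found in 13 of the 122 Gpnmb-leaning members (10.7%, beside 5.53% of B cells), with 187 of its 440 counts in 1 cell, F13a1 in 16 of 122 and Gdf3 in 20 of 122. Arg1 was found in 13 of 122 (10.7%), below the 13.8% of B cells. Others were found in more cells. Cd93, a C-type lectin-like receptor of myeloid and endothelial cells, was found in 68.9% of Gpnmb-leaning members, 22.3% of Mmp12-leaning members, 20.04% of the other Kupffer-gated cells and 7.37% of B cells. The fractalkine receptor Cx3cr1 was found in 39.3%, 13.7%, 20.2% and 6.91% in the same order, and the chemokine receptor Ccr1 in 45.9%, 17.5%, 14.9% and 9.22%. Each of these receptors was thus found more often in Gpnmb-leaning members than in these other 3 groups of cells. The groups differ in depth, with medians of 14833.5, 14415, 10286 and 4647 counts per cell in the same order. The part of depth in these shares was not tested. Monocytes and the Gpnmb or Mmp12 cells below the Kupffer threshold are not among these groups. Cd93 was not particular to Gpnmb-leaning members, where it had 220 CPM. In the same library it had 456 CPM in the Gpnmb or Mmp12 cells below the Kupffer threshold and 318 CPM in monocytes. The Timd4-negative other Kupffer-gated cells had 172 CPM. The fatty acid-binding protein gene Fabp5 had 212 CPM in Gpnmb-leaning and 99.1 CPM in Mmp12-leaning members.

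Mmp12-leaning members were higher in Il1rn, Mmp13, Cd9 and resident genes. Il1rn had 353 CPM against 48.3 and was found in 64.9% against 32.8% of cells, beside 1.38% of B cells. Mmp13 had 262 against 83.2 CPM and Cd9 148 against 61.5 CPM. A Timd4 count was found in 67.8% of Mmp12-leaning and 25.4% of Gpnmb-leaning members, against 72.7% of the other Kupffer-gated cells and 3.23% of B cells. Other genes did not differ by this size: Cd63 had 325 and 306 CPM, with a log2 ratio of 0.08 (-0.06 to 0.23), and Itgax 107 and 109 CPM, with a log2 ratio of -0.02 (-0.28 to 0.23). Some of the largest ratios came from single cells: 1 cell held 380 of the 418 Cxcl13 counts and 1 held 88 of the 98 Lyz1 counts of the Gpnmb-leaning members, and 1 Mmp12-leaning cell held 169 of 242 S100a8 counts. The library labelled knockout had 2 Gpnmb-leaning and 9 Mmp12-leaning members, too few to compare. Across the 344 members of the library labelled control the Spearman correlation was 0.41 between Gpnmb and Cd63, 0.41 between Mmp12 and Mmp13 and 0.21 between Mmp12 and Itgax.

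**Figure D5:**
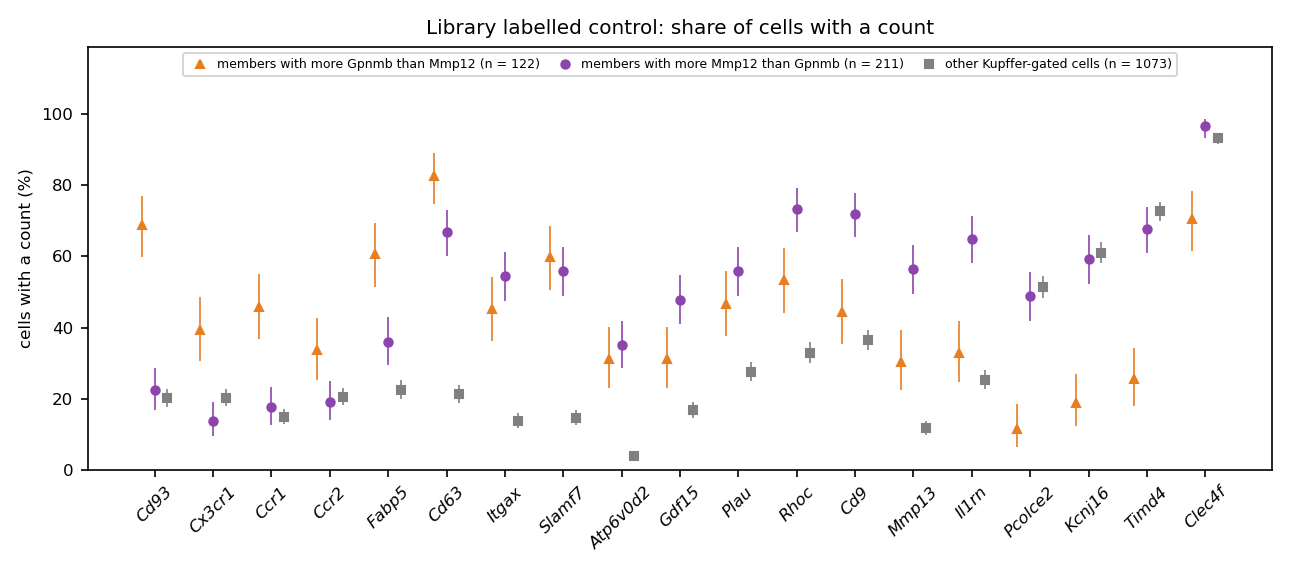
Share of cells with at least 1 count (y axis, percent) of each of 19 genes in the library labelled control, in the 122 Gpnmb-leaning members, the 211 Mmp12-leaning members and the 1073 other Kupffer-gated cells; bars are 95% counting intervals. Among the classes drawn, Cd93, Cx3cr1 and Ccr1 are highest in the Gpnmb-leaning members and Mmp13, Il1rn and Cd9 in the Mmp12-leaning members. Timd4 lies at 25.4%, 67.8% and 72.7%.

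The 11 members of the library labelled knockout can be given one by one. They held between 8313 and 59429 counts. Mmp12 was found in 9 of them, at 173, 132, 64, 37, 29, 24, 14, 14 and 4 counts. Gpnmb was found in 3, at 51, 4 and 3 counts, and 51 of its 58 counts thus lay in 1 cell, which also held 132 of the 491 Mmp12 counts, 32 of the 64 Il1rn counts and 0 of Timd4. The deepest cell held the 173 Mmp12 counts, 0 of Gpnmb and of Trem2, and 48 of the 114 counts of the endothelial genes in the rule. Trem2 was found in 9 cells at 3 to 16 counts. Timd4 was found in 9 of the 11. In all, 1 member held Gpnmb and Mmp12 together, 8 Mmp12 without Gpnmb and 2 Gpnmb without Mmp12.

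Members of the library labelled knockout were set beside those of the library labelled control, 255434 summed counts against 5350360, with the same ratio in the other Kupffer-gated cells. Of 9117 genes, 1897 (20.8%) were at least 1.5-fold higher in the library labelled knockout and 1553 (17%) lower. With TMM scaling, which lowers every ratio of this comparison by 0.16 on the log2 scale, the split was 1410 higher and 2068 lower. Without it, the counting interval left out 0 for 796 of the 1897 and 476 of the 1553. Cell cycle genes were lower in 18 of 22 cases, with a median log2 ratio of -1.93 in members and -1.90 in the other Kupffer-gated cells. Monocyte genes were lower in 10 of 15 cases, with a median of -0.68 in members and -1.46 in the others. Kupffer identity genes were higher in 9 of 20 and lower in 0, with medians of 0.34 and 0.53. The scar-associated list had 3 of 15 genes higher and 7 lower, with medians of -0.50 and -0.53.

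Among genes with at least 50 CPM and 100 counts, the 10 highest ratios between the mice were those of Clec4g, Egr1, Cxcr4, Adamdec1, Xlr, Slc1a3, Adgrf5, Aqp1, Fosb and Il1b. The immediate early gene Egr1 had 140.2 CPM in members of the library labelled control and 939.6 CPM in those of the library labelled knockout, with counts in 9 of the 11 cells, and its log2 ratio of 2.74 stood beside 2.10 in the other Kupffer-gated cells. Fosb had 2.18 beside 1.56, and Il1b 2.06 beside 2.09. These 3 genes thus differed between the libraries in Kupffer-gated cells at large. Cxcr4 had 2.53 beside 0.33, on a count of 34 in 7 cells, the metalloproteinase Adamdec1 2.17 beside 0.13, and the glutamate transporter Slc1a3 2.13 beside 0.29. The endothelial genes Clec4g, Aqp1 and Adgrf5 were among the 10 highest, and the 7 endothelial markers summed to 771 CPM in members and 686 in the other Kupffer-gated cells of the library labelled knockout, against 318 and 461 in the library labelled control. All 7 were detected in each group, and their part in these ratios was not tested.

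The lowest ratios rested on 1 to 5 counts in the library labelled knockout. Atp6v0d2 had 793 counts (148 CPM) in members of the library labelled control and 1 in those of the library labelled knockout. The log2 ratio was -5.24 (-10.55 to -2.76) beside -1.29 in the other Kupffer-gated cells. The acute phase gene Saa3 had -4.45 beside 1.32, Cd93 -3.97 beside -2.72 and the platelet factor gene Pf4 -3.55 beside -1.89. The proliferation genes Top2a and Mki67 had -4.01 and -3.94 beside -2.29 and -2.07. Ccn2 itself had a count of 71 (13.3 CPM) in members of the library labelled control, beside 17.0 CPM in B cells, and 0 counts in those of the library labelled knockout, where 3 counts would be 11.7 CPM. The Ccn2 counts in members were thus no higher than in B cells. Cdh5, the gene whose promoter drives the Cre and which Kupffer cells also transcribe, had 161 CPM in members and 384 in the other Kupffer-gated cells of the library labelled control, and 469.8 and 613 CPM in that labelled knockout, against 11.1 and 16.7 CPM in B cells.

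Markers of other cell types were low in most members. A limit for markers of T, NK, B, plasma, neutrophil, mesothelial, erythroid or hepatocyte cells was passed by 18 of 344 members and 107 of 1073 other Kupffer-gated cells in the library labelled control, and by 0 of 11 and 73 of 1413 in that labelled knockout. All 6 monocyte markers were detected in members of the library labelled control, summing to 278 CPM against 436, and T and NK cell markers summed to 11.6 against 29.0 CPM. In the library labelled control 2 members held 1018 of the 1035 Jchain counts, 93.9% of the Igkc counts and 93.4% of the Ighm counts of all members, so that immunoglobulin levels there belong to these 2 cells, which held 143 counts of Clec4f as well. Without them and without the cell richest in Gpnmb in the library labelled knockout, the log2 ratio of Plau between the libraries turned from 0.85 to -1.37. In bulk sums of this kind, fewer cells with a transcript and less of it in each cell cannot be told apart. Scaling by TMM or by median ratios in place of total counts moved all ratios of a comparison together, by 0.06 and -0.11 (TMM, log2) for members against other Kupffer-gated cells in the library labelled control and that labelled knockout, and by -0.16 between the libraries.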

How the data were processed

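Single liver cells of 2 mice, 1 for each genotype, were captured on the BD Rhapsody system and read as whole transcriptomes. The deposited matrices hold the authors' whole-number counts per gene and cell for 10000 barcodes per library. Per the submitters' processing notes the genome build was GRCm39. The aligner, the version of the annotation and whether counts were collapsed by molecular identifier were not given in the sources read, so intervals cover counting error only. Members were gated with Python 3.11.15, numpy 2.4.6 and scipy 1.17.1 as stated above, over all barcodes with at least 300 genes and at most 25% mitochondrial counts. No doublet caller was run, and cells with markers of another lineage (over 10 per 10000, or over 50 for hepatocytes) or of very high depth were left out as alternatives instead. Only 2 barcode numbers occurred in both libraries, neither of them a member.

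Counts were summed over the cells of each class and library and scaled to CPM by the class total. Log2 ratios carry exact conditional intervals, and shares carry exact Clopper-Pearson intervals, at 95%. Genes entered a comparison with at least 10 CPM in a group and 20 counts, and where a group had 0 counts the ratio was taken against 3 counts, as a bound. A gene was counted at 1.5-fold, with no test, because each label has 1 library. The scripts were tested on simulated data. Scaling by edgeR 4.0.16 (TMM) and by median ratios were alternatives.

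Genes named outside the lists were those with at least 50 CPM and 100 counts: the 12 highest and 8 lowest by the smaller of the ratios in both libraries, and the 10 highest and 10 lowest between the libraries' members. Each list names up to 4 genes counted in both libraries, or otherwise the 2 of highest CPM, and other genes were named after their values were seen. The members, lists and comparisons were chosen with earlier results of these data known. Depth ran from medians of 7972 and 9506 counts per kept cell to 14580.5 and 21043 in members of the libraries labelled control and knockout. Motif matches and sequences come from RefSeq promoter windows of GRCm38.p6. A gene that the rule for named genes takes is not reported here.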

Additional observations from a re-analysis of the deposited data

Results flagged for a closer look

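Opposite directions in the libraries drew attention to 6 of the named genes, for which members were at least 1.5-fold above the other Kupffer-gated cells in one library and below them in the other. The difference between the libraries was not tested, since each label had 1 library. Slc1a3 had a log2 ratio of 1.23 in the library labelled knockout and -0.60 in that labelled control. Aqp1 had 0.69 and -0.91, Adgrf5 0.61 and -0.77, and Adamdec1 0.61 and -1.43, in the same order. Pf4 had -0.96 and 0.70. Saa3 had -3.20 on a count of 1, and 2.57 in the library labelled control, where 187 of its 457 counts in members lay in 1 cell. The 11 members of the library labelled knockout held 20 Slc1a3 counts in 4 cells, 19 Aqp1 counts in 5 cells, 17 Adgrf5 counts in 6 cells and 68 Adamdec1 counts in 9 cells. After thinning to 3000 counts per cell, the ratios of Slc1a3 and Aqp1 there were -0.13 and -0.46. Among all 8460 genes measured in both libraries, 86 were this far apart in opposite directions and 354 in the same direction.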

How the results depend on the processing

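No paired analysis was possible because each label has 1 library, and for the same reason leaving out a replicate was not. At a threshold of 10 for Gpnmb, Mmp12 and Trem2, 6 members were left in the library labelled knockout. Members were 6.75% and 0.195% of the cells of the libraries labelled control and knockout left after thinning to 8000 counts. The log2 ratio of the knockout-labelled to the control-labelled share ran from -5.53 to -4.99 of kept cells and from -5.38 to -4.84 of Kupffer-gated cells over the 11 alternatives. The counts of genes between groups of members within the library labelled control stayed within 1.5 times under the alternatives run for them. Other counts moved, most with the filter or the fold. Without a filter on low genes, 376 genes were higher in both libraries, 2179 higher and 3138 lower in the library labelled control, and 3031 higher in members of that labelled knockout than of that labelled control. A filter of 50 CPM gave 83 higher and 65 lower in both, 161 and 162 in the library labelled control alone, and 743 higher and 421 lower between the libraries. At 2-fold these were 55 and 67, 135 and 202, and 813 and 787. Thinning to 3000 counts gave 68 lower in both, 576 higher and 962 lower in the library labelled control alone, and 973 lower between the libraries. A Kupffer threshold of 5 gave 366 lower in both, and Timd4-negative comparison cells gave 440, with 1064 in the library labelled control alone.

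Log2 ratios of members over other Kupffer-gated cells changed sign in the library labelled knockout for Marco (0.10) at a threshold of 3, Egr1 (-0.15) at 10, Cxcl9 (-1.96) and Pgk1 (-0.062) at stricter endothelial and stellate limits, Aqp1 (-1.03), Gpr182 (-2.01) and Kdr (-0.80) without very deep cells, and Aqp1 (-0.46), Clec4g (-1.22), Slc1a3 (-0.13) and Top2a (0.84) after thinning. The cell cycle median there became 0.88 at 50 CPM and 0.77 against depth-matched cells. In the library labelled control they did so for Alb (0.015), Gc (0.15) and Ttr (0.21) without cells of other lineages, and for Fn1 (0.30) against Timd4-positive cells. Against Timd4-negative cells the control-labelled ratios were C6 0.98, Cd163 0.61, Cd74 -0.084, Cd93 -0.49, Clec4f 0.78, Folr2 0.53, Marco 1.69, Myo5a -0.27, Pf4 -0.45, Slc1a3 2.04 and Timd4 7.45. Those of the library labelled knockout were Bhlhe40 -1.03, C6 1.10, Ccl24 0.90, Ccl9 -0.65, Cd163 1.44, Cd9 -0.028, Ctsf 0.47, Folr2 0.95, Irf7 0.049, Marco 1.49, Mmp13 -0.37, Plaur -1.51, Slamf7 -0.36 and Timd4 6.63. The Timd4 values follow from how these cells were picked, and Alb and Ttr are among the markers by which cells of other lineages were left out. Between the libraries' members, the ratio changed sign for Timd4 (-0.020) at a threshold of 10, Gpr182 (-1.19) without very deep cells, Gpnmb (0.47) and Serpina1c (0.44) after thinning, and Plau (-1.37) without 3 single cells, an alternative chosen after seeing the data. The cause was not tested. The 11 members of the library labelled knockout limit every value of that library: 3 counts there are 11.7 CPM, against 0.561 CPM in the library labelled control.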
